A study of Ambystoma mexicanum with 12 samples.

Results

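The expression of 30 immune and tyrosine phosphatase genes was followed in limb tissue of the axolotl (*Ambystoma mexicanum*), a salamander that regrows amputated limbs. The genes were taken by name from a table of the study, whose entries were selected on their measured difference between blastema and limb in these libraries and in the data of another study. A gene entered when its name began with one of 21 prefixes, such as PTP, DUSP, CTS, CCL or IL followed by a digit. Of 99088 genes counted, 1114 had an identifier in that table and 30 met the rule. Their difference between blastema and juvenile limb was therefore fixed by the choice, and the fold changes and calls of that comparison are given as a description, with no p-value for a member. The set holds 8 receptor tyrosine phosphatases, 8 dual-specificity phosphatases, 5 cytokines, chemokines or their receptors, 3 cathepsins and 6 other genes. These 6 are called immune-related here by their name prefix only.

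Blastemas, aged limbs and juvenile limbs were sequenced after depletion of ribosomal RNA. The 5 blastemas were collected 10 days after amputation from juvenile axolotls aged 8 months. The 2 aged limbs came from axolotls aged 8 years, which formed no blastema, so that no tissue after amputation was taken from them. The 5 juvenile limbs came from the same animals as the blastemas, and both groups carry the replicate numbers 2, 3, 5, 6 and 8. Libraries of the same number are taken here to be of the same animal, which the methods of the study do not state. All animals were sedated with benzocaine and came from a captive colony founded with specimens from Lake Xochimilco. The results of the study name a forelimb, its methods the inferior limbs and the labels the posterior leg, so the limb taken is not settled here. Values per library are listed in the order of the replicate numbers, which are 1 and 2 for the aged limbs.

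A blastema is the mound of proliferating progenitor cells, covered by a wound epithelium, from which an amphibian limb is rebuilt. Protein tyrosine phosphatases remove phosphate from tyrosine residues and thereby counter receptor and Src-family kinases, while dual-specificity phosphatases also remove it from serine or threonine, several of them on MAP kinases. Chemokines direct leukocytes to tissue, cytokines act between immune and stromal cells, and cathepsins are lysosomal proteases that degrade matrix or process antigen. The roles named here are those known in mammals.

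Total counts per library were between 12975883 and 20663627. Levels are CPM, which are counts scaled to library size by edgeR's TMM method, and were not divided by gene length and are compared only within a gene. Tissue identity was checked with marker lists, which were drawn in large part from the same table. It holds all 7 blastema, 28 muscle, 9 keratinocyte, 3 Schwann cell and 4 bone or cartilage genes. It also holds 11 of 14 leukocyte, 4 of 5 endothelial and 2 of 8 proliferation genes. The choice itself thus favours a difference between blastema and limb in these lists, least so in the proliferation list. The summed level of 7 blastema genes was 876 to 2432 CPM in blastemas, 35.3 and 61.0 CPM in aged limbs, and 70.5 to 125 CPM in juvenile limbs. The sum of 28 muscle genes was 161 to 249 CPM in blastemas, against 10982 to 45602 CPM in juvenile limbs. Aged limb 1, at 21659 CPM, lay within the juvenile range of the muscle sum, whereas aged limb 2, at 2943 CPM, lay below it. The proliferation sum overlapped between blastemas, at 75.6 to 103 CPM, and juvenile limbs, at 31.7 to 87.0 CPM. Of its 7 genes tested below, 4 had a positive log2 fold change in blastema over juvenile limb. The Schwann cell sum was 8.90 to 16.4 and 53.9 to 172 CPM, the bone or cartilage sum 1.63 to 5.22 and 15.8 to 31.6 CPM. In aged limbs 1 and 2 these sums were 82.5 and 54.1, 56.5 and 55.5, and 8.98 and 5.03 CPM. The sum of 14 leukocyte genes overlapped between the groups, at 106 to 227 CPM in blastemas, 192 and 215 CPM in aged limbs, and 132 to 196 CPM in juvenile limbs. A sum follows its genes of highest count, here LSP1 with 15452 counts over the 12 libraries. Of the 10 leukocyte genes tested below, 7 had a negative log2 fold change in blastema over juvenile limb, so an overlapping sum does not mean unchanged genes. In such bulk tissue, fewer cells of a type and less RNA per cell cannot be told apart.

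Most of the set was lower in the blastema. Within animals, 25 of 30 members had a lower level in the blastema than in the limb of the same animal in all 5 animals, and 3 (IL11, IL17RD and MARCO) had a higher level in all 5. The choice of the members favours such counts. They were not made over all genes, so they have no share beside them. Of the 25 members kept by the filter on low counts, 22 had a negative log2 fold change in blastema over juvenile limb, with a median of -1.87 against -0.02 for all genes tested. The median was the same when DUSP26.3 and DUSP29, kept by the filter without a count in blastemas, were placed at their bound. With a filter of a mean of at least 10 counts, which kept all 30 members, the median was -2.31, against -0.03 for all genes tested. A gene was called where edgeR's quasi-likelihood test gave an adjusted p under 0.05 and the log2 fold change exceeded 1 in size. This held for 16 of 25 members, 1 higher and 15 lower, while 7.45% of all genes tested were called, 1.86% higher and 5.6% lower. This share follows from the choice of the members. The count was 10 of 25 tested without juvenile limb 2, 10 of 26 without juvenile limb 8, 28 of 30 with DESeq2 and 25 of 30 without the filter. Over all genes, the first 2 of these fits called 230 higher and 869 lower of 20375, and 285 and 842 of 20514. DESeq2 called 682 and 2014 of 63474, and the fit without the filter 981 and 2279 of 63474. All 5 blastemas lay below all 5 juvenile limbs in 15 of 25 members and above them in 0 of 25. Of all genes tested, 7.21% lay below and 3.28% above, together 10.5%. IL11, DUSP26.1, DUSP26.2, DUSP29.1 and CD164L2 did not pass the filter and were described by their counts.

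**Figure D1:**
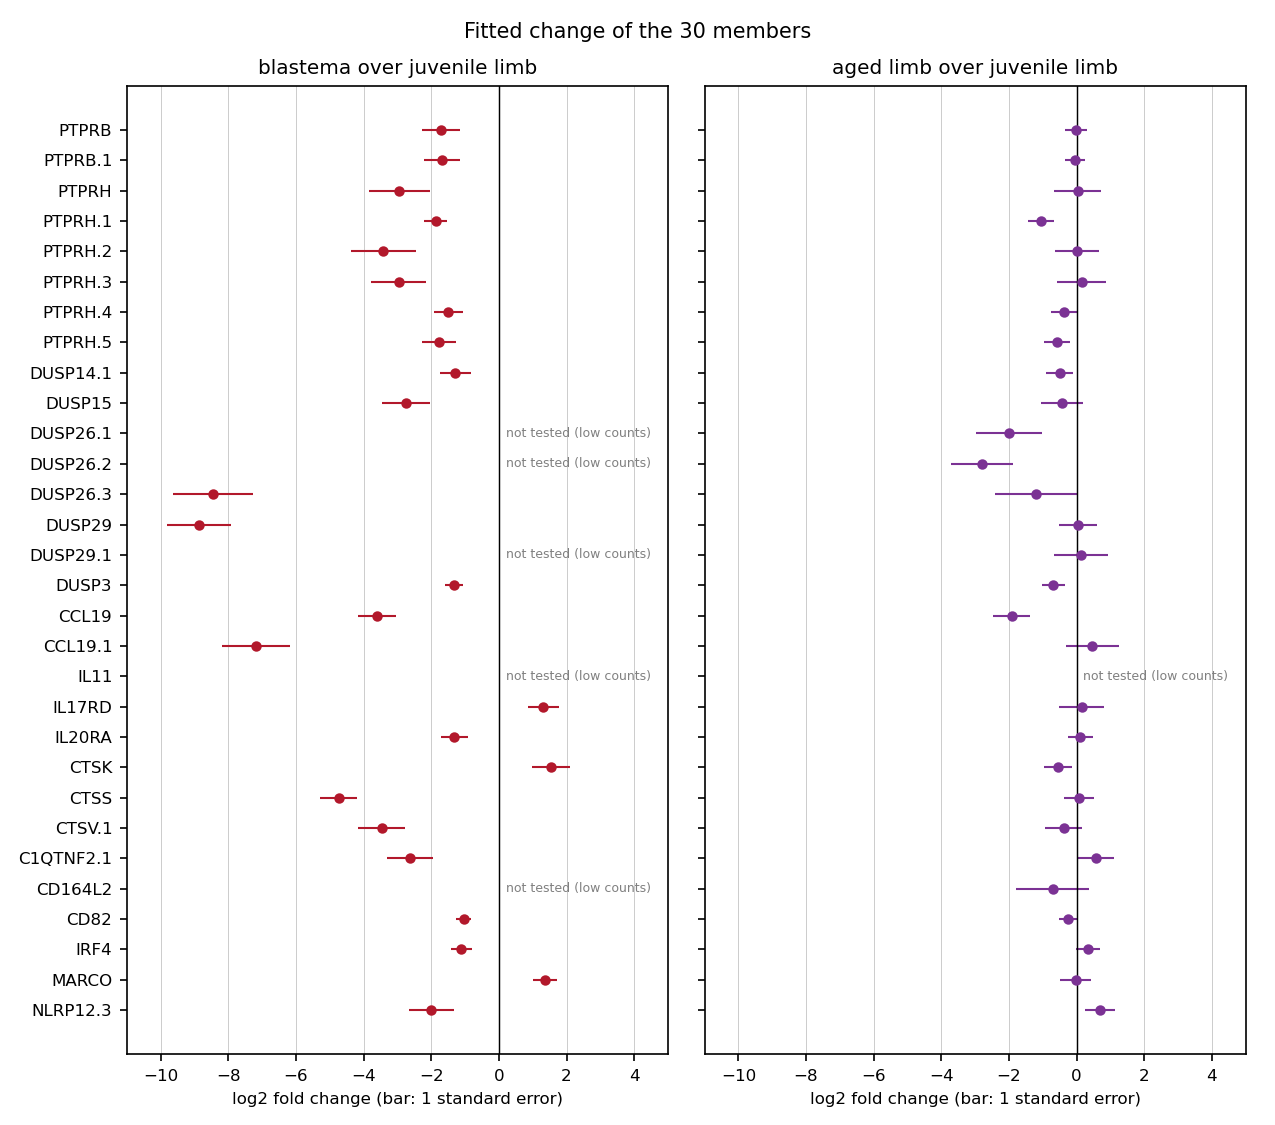
Fitted log2 fold change of each member in blastema over juvenile limb (left) and in aged limb over juvenile limb (right), with a bar of 1 standard error. On the left, which the choice of the members fixed, 22 of 25 points lie below 0. On the right the median of the 29 points is -0.05.

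The receptor tyrosine phosphatases were lower in blastemas, with all 8 log2 fold changes between -3.42 and -1.49. PTPRB (AMEX60DD004297), the vascular endothelial phosphatase that acts on TIE2 and VE-cadherin, had 15.4, 14.7, 87.8, 54.6 and 152 CPM in blastemas, 253 and 158 CPM in aged limbs, and 159, 207, 293, 174 and 220 CPM in juvenile limbs. Blastemas 2 and 3 were lowest, and blastema 8 came closest to the juvenile limbs without reaching them. Its log2 fold change in blastema over juvenile limb was -1.71 ± 0.57 (SE). The copy PTPRB.1 (AMEX60DD004298) had 4.99, 3.22, 17.2, 12.9 and 37.5 CPM in blastemas, 58.3 and 34.8 CPM in aged limbs, and 36.9, 48.5, 61.7, 40.5 and 55.9 CPM in juvenile limbs. Here blastema 8 lay just above the lowest juvenile limb. Of 5 endothelial genes, APLNR had no count in any library and ADGRF5.4 had none in blastemas. The sum of the 5 was 16.7, 34.4, 36.7, 25.8 and 48.5 CPM in blastemas, 40.1 to 44.4 CPM in aged limbs, and 53.4 to 97.0 CPM in juvenile limbs. Its part in the levels of PTPRB was not tested.

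The other 6 receptor phosphatases carry the name PTPRH, a phosphatase of epithelial cells. PTPRH.1 (AMEX60DD003095) had 3.52, 5.24, 10.5, 4.99 and 8.47 CPM in blastemas, 12.4 and 10.2 CPM in aged limbs, and 21.9, 13.8, 18.3, 31.6 and 33.3 CPM in juvenile limbs. All blastemas and both aged limbs were below every juvenile limb, with a log2 fold change in blastema over juvenile limb of -1.87 ± 0.34 (SE). Among the other copies the log2 fold change was -2.94 ± 0.90 for PTPRH, -3.42 ± 0.95 for PTPRH.2, -2.96 ± 0.81 for PTPRH.3, -1.49 ± 0.43 for PTPRH.4 and -1.77 ± 0.49 for PTPRH.5. PTPRH, PTPRH.2 and PTPRH.3 had no count in blastema 2. In juvenile limbs the same 3 copies were highest in replicate 8, at 19.8, 43.9 and 8.37 CPM. The sum of 9 keratinocyte genes, all detected, was 2259, 2083, 4715, 4532 and 4911 CPM in blastemas, 10606 to 11072 CPM in aged limbs, and 6506 to 17707 CPM in juvenile limbs, and 6 of the 8 genes tested were called lower in blastemas, a count that the choice of the list favours. The part of the epithelial genes in the levels of the PTPRH copies was not tested.

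Among dual-specificity phosphatases, 5 of 8 members had no count in any blastema. DUSP29 (AMEX60DD052174), an atypical phosphatase of skeletal muscle, had 0 CPM in all 5 blastemas, 4.89 and 2.51 CPM in aged limbs, and 3.31, 1.34, 5.02, 2.65 and 5.92 CPM in juvenile limbs. With a floor of 3 counts over the group, which is 0.0421 CPM in blastemas and covers counting error only, it was at least 81.9-fold lower in blastemas than in juvenile limbs. DUSP26.2 (AMEX60DD002503), a copy of an atypical phosphatase of nerve and muscle, had 0 CPM in all 5 blastemas, 0.27 and 0.13 CPM in aged limbs, and 1.83, 0.32, 1.99, 1.17 and 1.99 CPM in juvenile limbs. It was at least 33.2-fold lower in blastemas. The bounds were 34.0-fold for DUSP26.1, 59.8-fold for DUSP26.3 and 30.7-fold for DUSP29.1, from 114 to 222 counts over the juvenile limbs. The 28 muscle genes, all chosen from the table, were called lower in blastemas, where NEB had no count. The Schwann cell sum was lower there too, at 8.90 to 16.4 CPM against 53.9 to 172 CPM in juvenile limbs. The part of muscle or nerve tissue in these values was not tested.

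The 3 remaining dual-specificity phosphatases were detected in blastemas. DUSP3 (AMEX60DD009975), which acts on ERK and JNK kinases, had 7.14, 12.6, 18.7, 11.0 and 10.8 CPM in blastemas, 23.4 and 13.6 CPM in aged limbs, and 26.8, 22.2, 26.06, 32.7 and 43.0 CPM in juvenile limbs. Every blastema lay below every juvenile limb, and the log2 fold change was -1.33 ± 0.27 (SE). DUSP15 (AMEX60DD017254), a membrane-anchored phosphatase, had 0, 0.69, 2.36, 1.14 and 0.30 CPM in blastemas, 7.24 and 1.42 CPM in aged limbs, and 3.65, 3.83, 8.73, 4.68 and 9.20 CPM in juvenile limbs. Blastemas were again below all juvenile limbs, with a log2 fold change of -2.74 ± 0.71 (SE), while aged limb 2 lay within the blastema range. DUSP14.1, named for a negative regulator of T cell receptor signalling, overlapped between blastemas, at 0.30 to 2.08 CPM, and juvenile limbs, at 1.89 to 3.64 CPM.

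The cytokines and chemokines differed in direction. IL11 (AMEX60DD016524), an interleukin-6 family cytokine, had 43.5, 6.12, 0.16, 10.8 and 6.32 CPM in blastemas, 0 and 0.19 CPM in aged limbs, and 0 CPM in all 5 juvenile limbs. The blastemas held 445, 133, 2, 143 and 85 counts, so blastema 5 carried almost none of the signal. Set against a floor of 3 counts over the juvenile limbs, IL11 was at least 333-fold higher in blastemas, or at least 175-fold without blastema 2, which held 445 of the 808 counts. IL17RD, a receptor that restrains FGF signalling, had 1.73 to 4.70 CPM in blastemas, 1.38 and 1.61 CPM in aged limbs, and 0.55 to 2.25 CPM in juvenile limbs. It was higher in the blastema of every animal although the groups overlapped, and its log2 fold change was 1.32 ± 0.47 (SE).

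CCL19 (AMEX60DD041527), the chemokine that draws CCR7-bearing lymphocytes and dendritic cells, had 2.93, 2.02, 1.34, 1.66 and 0.15 CPM in blastemas, 3.47 and 6.70 CPM in aged limbs, and 26.7, 7.34, 15.9, 22.6 and 24.7 CPM in juvenile limbs. The 3 groups did not overlap, with the blastemas lowest and the juvenile limbs highest. Its log2 fold change in blastema over juvenile limb was -3.60 ± 0.56 (SE). The copy CCL19.1 had 1 count over all 5 blastemas, in replicate 6, 181 counts over the aged limbs and 288 over the juvenile limbs. It was 233-fold lower in blastemas than in juvenile limbs, with a 95% exact counting interval of 41.5 to 9231, and at least 63.3-fold lower without blastema 6. IL20RA (AMEX60DD034836), a subunit of the interleukin-20 receptor, had 10.5, 10.5, 23.1, 13.8 and 41.4 CPM in blastemas, 37.9 and 67.8 CPM in aged limbs, and 45.1, 66.1, 56.0, 27.0 and 53.3 CPM in juvenile limbs. Blastema 8 overlapped the juvenile limbs, and the log2 fold change was -1.32 ± 0.39 (SE).

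Of the cathepsins, CTSS and CTSV.1 were lower in blastemas and CTSK was not. CTSS (AMEX60DD007394), which cleaves the invariant chain for antigen presentation, had 2.25, 2.299, 1.02, 6.66 and 1.49 CPM in blastemas, 81.7 and 70.6 CPM in aged limbs, and 62.6, 81.2, 52.1, 131 and 38.3 CPM in juvenile limbs. All blastemas lay far below all limbs of either age, with a log2 fold change in blastema over juvenile limb of -4.74 ± 0.54 (SE). CTSV.1 (AMEX60DD007096), a cathepsin of thymus and epithelium, had 6.55, 7.91, 1.26, 17.9 and 1.86 CPM in blastemas, 56.8 and 62.1 CPM in aged limbs, and 42.0, 124, 51.1, 134 and 40.2 CPM in juvenile limbs. It too did not overlap, with a log2 fold change of -3.47 ± 0.69 (SE). CTSK (AMEX60DD014742), the collagen-degrading protease of osteoclasts, had 568, 104, 69.5, 95.2 and 152 CPM in blastemas, 44.4 and 49.0 CPM in aged limbs, and 51.6, 84.3, 84.5, 91.7 and 31.8 CPM in juvenile limbs. It was higher in the blastema of 4 of 5 animals, blastema 2 stood apart, and the log2 fold change of 1.53 ± 0.56 (SE) was 0.66 without that library.

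Among the other immune-related members, MARCO (AMEX60DD056028), a scavenger receptor of macrophages, was the member called higher. It had 60.7, 42.4, 29.3, 35.3 and 74.5 CPM in blastemas, 22.4 and 14.2 CPM in aged limbs, and 34.1, 15.4, 14.3, 9.18 and 21.2 CPM in juvenile limbs. Blastema 5 lay below juvenile limb 2, and the log2 fold change was 1.36 ± 0.36 (SE). The call was lost in 7 of the 10 fits that left out 1 library, namely those without blastema 2, 3 or 8 or without juvenile limb 3, 5, 6 or 8, where the log2 fold change was 1.15 to 1.45. With no library left out, the call held with DESeq2, with its size factors and without the filter. It also held with a mean of at least 10 counts, with all 12 libraries and with the animal as a block. CD82 (AMEX60DD005191), a membrane tetraspanin, had 20.9, 36.1, 40.2, 36.6 and 48.7 CPM in blastemas, 64.5 and 58.9 CPM in aged limbs, and 93.4, 77.4, 76.03, 61.6 and 65.1 CPM in juvenile limbs. Blastemas lay below all limbs, with a log2 fold change of -1.04 ± 0.23 (SE) in blastema over juvenile limb. NLRP12.3 (AMEX60DD032234), named for an intracellular NOD-like receptor, had 1.37, 2.16, 4.25, 6.89 and 23.8 CPM in blastemas, 65.9 and 31.4 CPM in aged limbs, and 14.4, 26.0, 35.5, 25.7 and 51.1 CPM in juvenile limbs. Blastema 8 alone reached the juvenile range.

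IRF4, a transcription factor of lymphocytes, had a log2 fold change in blastema over juvenile limb of -1.11 ± 0.31 (SE) and was lower in 4 of 5 animals. C1QTNF2.1, named for a secreted protein with a C1q-like domain, had 0 to 0.39 CPM in blastemas, 1.96 and 1.87 CPM in aged limbs, and 0.59 to 1.93 CPM in juvenile limbs. CD164L2 was counted in 1 blastema only, replicate 3, at 0.23 CPM, against 0.37 to 3.51 CPM in juvenile limbs. Beside these members, the 14 leukocyte genes had 10 tested, 2 called higher and 2 called lower in blastemas, with CPA3 at 0 in all blastemas, and 11 of the 14 are in the table. Their part in the levels of the immune members was not tested.

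**Figure D2:**
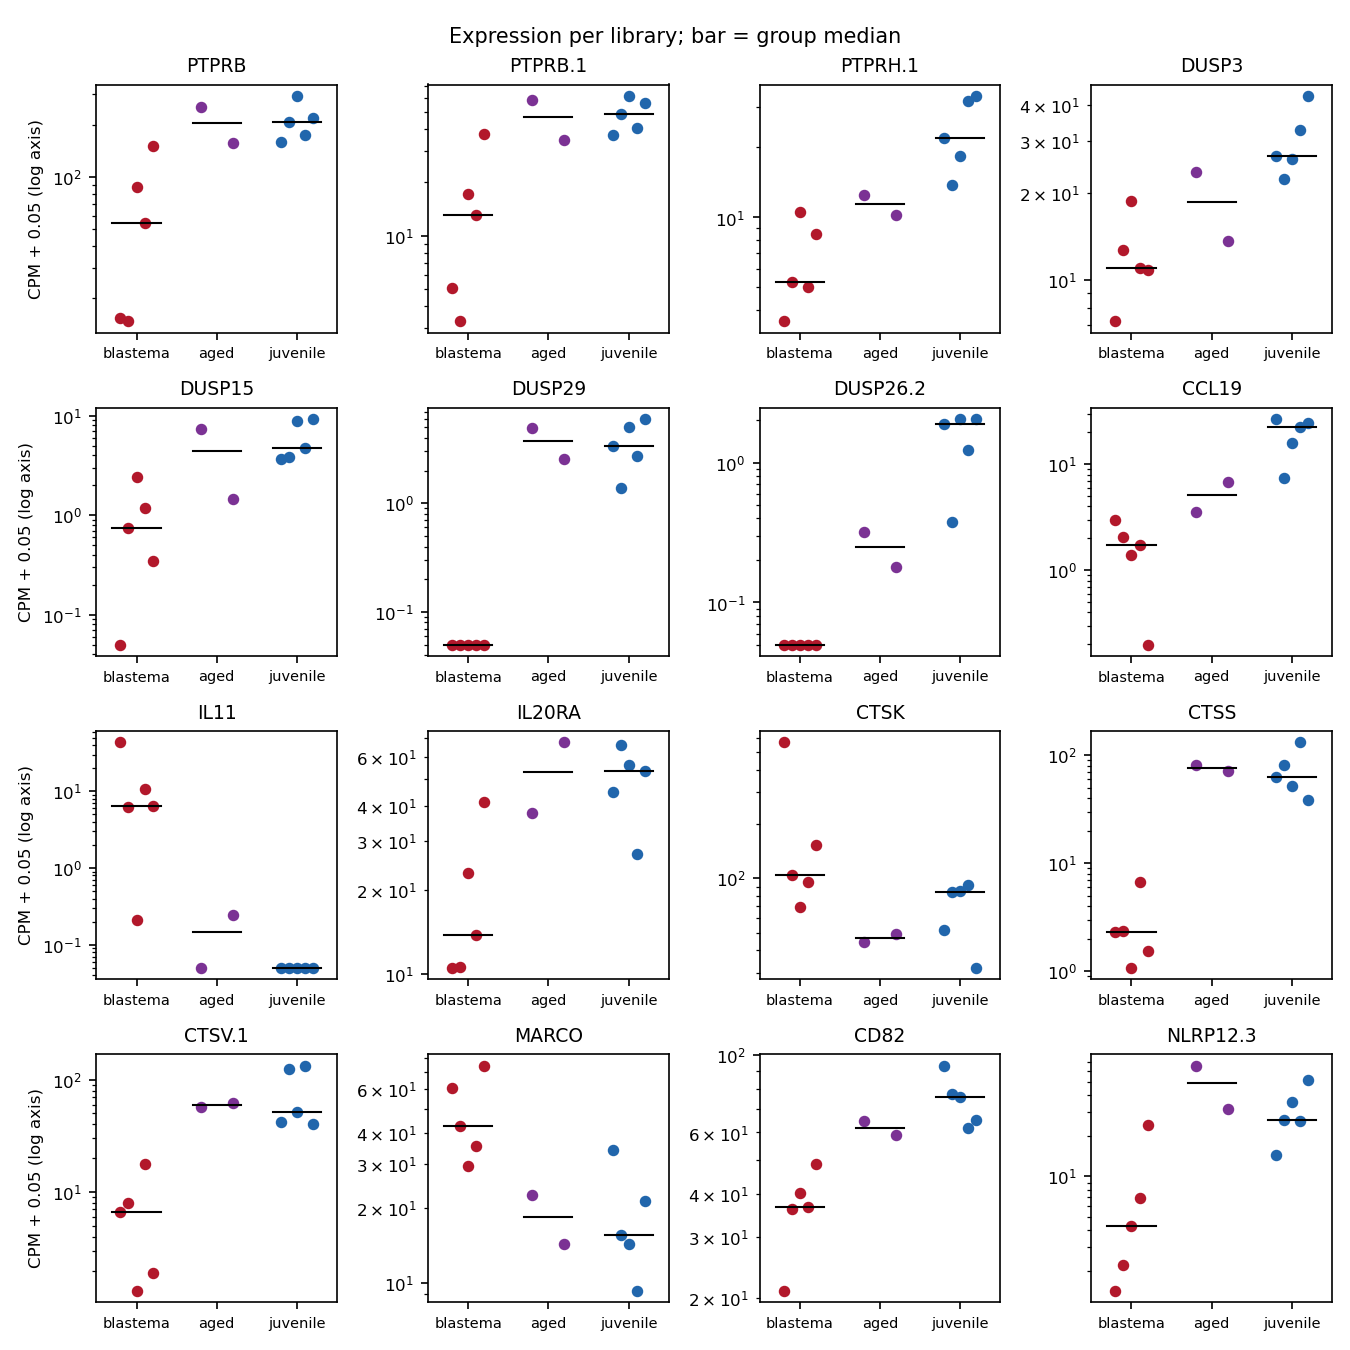
Level of 16 members in every library, as CPM plus 0.05 on a log axis, with blastemas (5 points), aged limbs (2 points) and juvenile limbs (5 points) and the group median as a bar. IL11, CTSK and MARCO have higher medians in blastemas, DUSP29 and DUSP26.2 have no count there, and CCL19 has aged limbs between blastemas and juvenile limbs.

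The blastemas differed among themselves in these genes. Of the 25 members with a count in some blastema, 11 were highest in blastema 8, and 13 were lowest, ties included, in blastema 2. Among the 8 receptor phosphatases, 6 were highest in blastema 8 and 5 lowest in blastema 2. These ranks were not computed over all genes, so they have no share beside them. Blastema 2 also had the fewest total counts of the blastemas, 13392223, and the fewest genes detected, 25733. The part of depth in these ranks was not tested. PTPRB varied 10.3-fold among blastemas, against 1.85-fold among juvenile limbs, and IL20RA 3.95-fold against 2.45-fold. The order was the other way in IL17RD, at 2.71-fold against 4.06-fold, IRF4, at 1.94-fold against 2.16-fold, and MARCO, at 2.54-fold against 3.71-fold. Of the members higher in blastemas, IL11, IL17RD and CTSK were highest in blastema 2 and MARCO in blastema 8. CTSS and CTSV.1 were both highest in blastema 6 and lowest in blastema 5. Blastemas 2 and 3, which had the 2 lowest keratinocyte sums, also had the 2 lowest levels of PTPRB, PTPRB.1, PTPRH, PTPRH.2, PTPRH.3, PTPRH.4, PTPRH.5 and NLRP12.3, and the part of epithelium in this order was not tested.

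**Figure D3:**
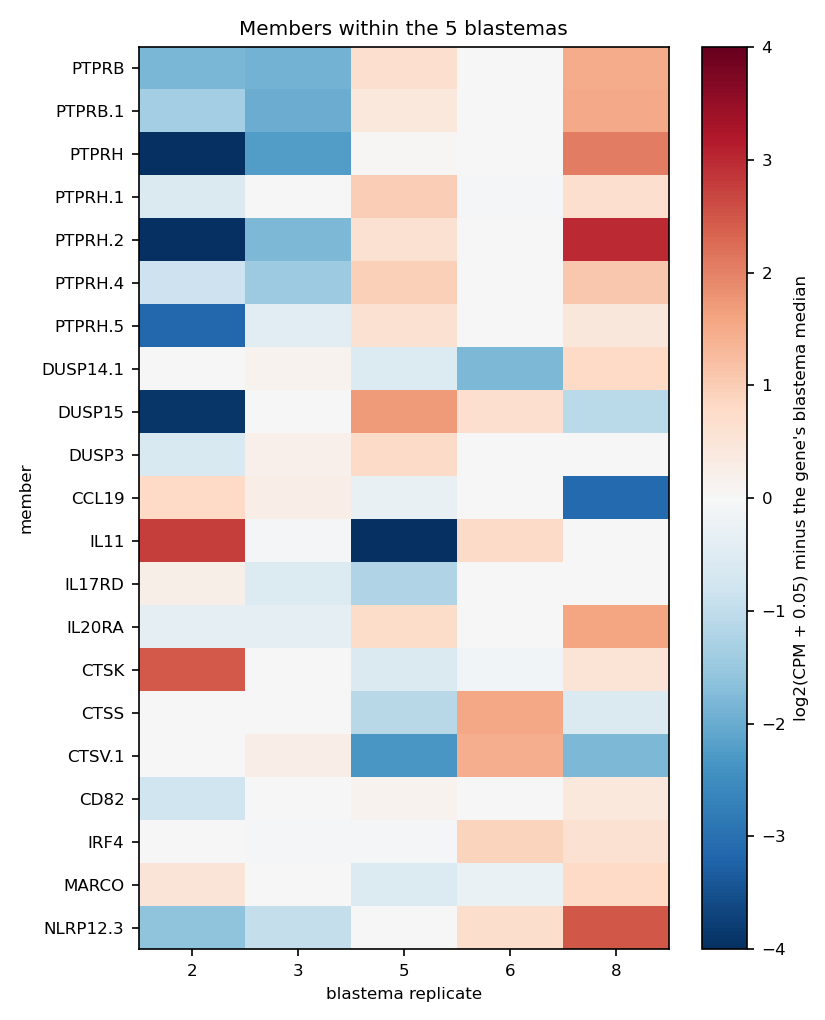
Level of the 21 members with at least 50 counts over the 5 blastemas, shown for each blastema (columns) as log2(CPM + 0.05) minus the median of that gene over the blastemas, with colours saturating at 4 in either direction. The receptor phosphatases are below their medians in replicates 2 and 3 and above them in replicate 8, with PTPRH.1 in replicate 3 at its median, while IL11 and CTSK are highest in replicate 2.

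Whether the members also differ with age was asked in limbs that had not regenerated. The aged limbs took no part in choosing the members, although the juvenile limbs did. With edgeR's test and p-values adjusted over all genes, 0 of 29 members were called, while 0.103% of all genes tested were called. At an unadjusted p under 0.05 there were 3 of 29 members with edgeR, beside 1818 of all 24316 genes. With DESeq2, which called CCL19 alone, there were 4 of 30 members, beside 2477 of 62161 genes. The median log2 fold change of the members was -0.05, against -0.04 for all genes, and 17 of 29 were negative, against 12854 of 24316 genes. The log2 fold changes ranged from -1.06 to 0.15 for receptor phosphatases, from -0.54 to 0.07 for cathepsins and from -0.71 to 0.69 for the other immune members.

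Both aged limbs lay below all juvenile limbs in CCL19, DUSP26.2 and PTPRH.1, and above all of them in no member, where 6.33% of all genes tested were below and 6.08% above. CCL19 averaged 5.08 ± 2.29 CPM in aged limbs (SD, n = 2) and 19.5 ± 7.88 CPM in juvenile limbs (SD, n = 5). Its log2 fold change in aged over juvenile limb was -1.92 ± 0.54 (SE), with an adjusted p of 0.426 in edgeR, 0.0255 in DESeq2 and 0.000572 in edgeR without the filter on low counts. Across all alternatives the adjusted p ran up to 0.746. DUSP26.2 had a log2 fold change of -2.79 ± 0.91 (SE, edgeR adjusted p = 0.537) and rested on 8 counts over the aged limbs, 6 and 2, with the lowest juvenile limb at 7. PTPRH.1 had a log2 fold change of -1.06 ± 0.39 (SE, edgeR adjusted p = 0.583). Over all alternatives DUSP26.2 and PTPRH.1 had adjusted p-values of at least 0.180 and 0.314. Without aged limb 2, which stood apart in muscle genes, the log2 fold change was -2.44 for CCL19, -2.37 for DUSP26.2 and -0.89 for PTPRH.1, with edgeR adjusted p-values of 0.728, 0.922 and 0.922.

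The levels were next set against muscle content over the 7 limbs, since aged limb 2 had so few muscle counts. Members' log2(CPM + 0.05) were correlated with the log2 sum of the 28 muscle genes, and likewise with the 14 leukocyte genes, which makes 60 relations tested by exact permutation over all pairings, two-sided. DUSP26.3 had a Pearson r of 0.976 with the muscle sum (exact permutation p = 0.000198, the smallest the pairings can give, adjusted p = 0.0119, n = 7) and a Spearman rho of 1.00 (exact permutation p = 0.000397, adjusted p = 0.0238). CD164L2 had an r of 0.962 (exact permutation p = 0.00119, adjusted p = 0.0357) and a rho of 0.964 (exact permutation p = 0.00278, adjusted p = 0.0556). Without aged limb 2 and juvenile limb 8, which lay farthest from the median muscle sum, r was 0.88 for DUSP26.3 and 0.97 for CD164L2. In DUSP15 the r was 0.951 (exact permutation adjusted p = 0.0516) and 0.78 without those 2 limbs. Of all 30 members, 24 had a positive r with the muscle sum, with a median of 0.40, or 0.26 without the 2 limbs. With the leukocyte sum, in which LSP1 had the most counts, 10 of 30 were positive, with a median of -0.32. By the exact permutation test 0 passed, also at an unadjusted p under 0.05 for Pearson's r. The same relations were not computed over all genes, so the counts with either sum have no share beside them. Copies of the same name may share reads, so the 30 members are not all separate.

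**Figure D4:**
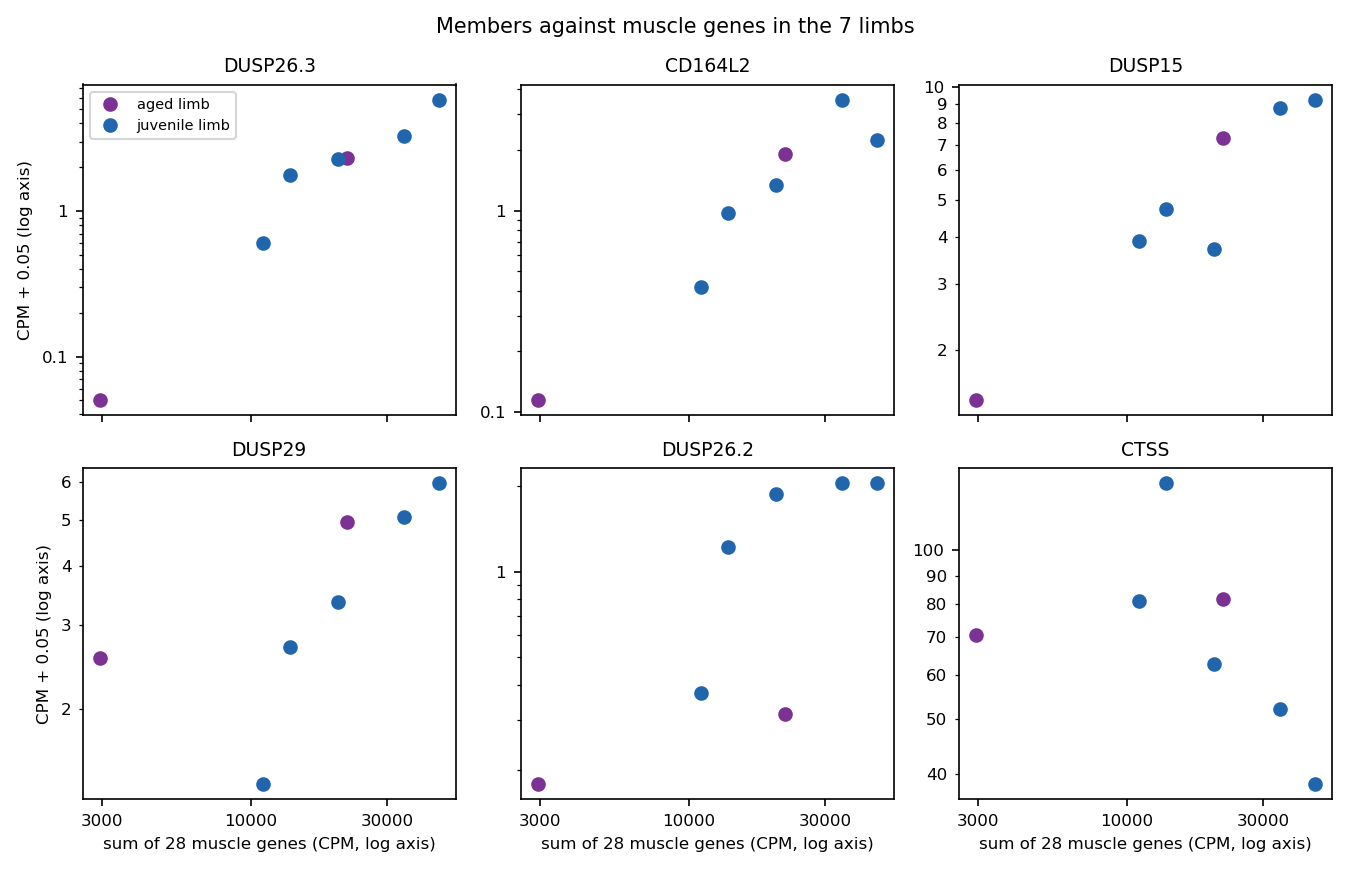
Level of 6 members, chosen after their values were seen, as CPM plus 0.05 against the sum of 28 muscle genes in CPM, both on log axes, for the 2 aged and 5 juvenile limbs. DUSP26.3 and CD164L2 follow the muscle sum with r of 0.976 and 0.962, DUSP26.2 is low in both aged limbs, and CTSS does not follow it.

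Individual limbs show what these relations hold. DUSP26.3 had 2.27 CPM in aged limb 1 and 0 CPM in aged limb 2, against 2.22, 0.55, 3.23, 1.73 and 5.79 CPM in juvenile limbs. CD164L2 likewise had 1.87 and 0.06 CPM in aged limbs, against 1.28, 0.37, 3.51, 0.93 and 2.19 CPM in juvenile limbs. In both genes aged limb 1 sat among the juvenile limbs and aged limb 2 below them. DUSP29 had 2.51 CPM in aged limb 2, which is above the 1.34 CPM of juvenile limb 3, although the muscle sum of that aged limb was lower. Its Pearson r with the muscle sum was 0.677 (exact permutation p = 0.0913, adjusted p = 0.373, n = 7), or 0.90 without the 2 limbs, and its Spearman rho was 0.964 (exact permutation p = 0.00278, adjusted p = 0.0556). DUSP26.2 had 6 counts in aged limb 1, where the muscle sum was within the juvenile range, and 7 counts in juvenile limb 3. Counts so close and so few hardly set these limbs apart. The part of muscle in the levels of these members was not tested.

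Blastemas and aged limbs were also set side by side, as a description because the blastemas took part in the choice and serve in both comparisons. Of 26 members kept by the filter, 22 had a negative log2 fold change in blastema over aged limb, with a median of -1.59 against 0.04 for all genes. The count called was 3, all lower in blastemas, while 1.59% of all genes tested were called and 1.15% were called lower. It was 1 of 26 without blastema 6, 7 of 30 with DESeq2, 7 of 30 in a fit of all 12 libraries and 16 of 30 without the filter. Over all genes, the fit without blastema 6 called 39 higher and 124 lower of 21792, and DESeq2 525 and 561 of 50623. The fit of all 12 libraries called 223 and 785 of 25263, and that without the filter 728 and 1139 of 50623. CTSS had a log2 fold change of -4.74 ± 0.58 (SE). CCL19.1 was 339.6-fold lower in blastemas than in aged limbs, with a 95% exact counting interval of 60.2 to 13488, and DUSP29 at least 93.2-fold lower. The fold for CCL19.1 was at least 92.2 without blastema 6 and 165 without aged limb 1, and the bound for DUSP29 was 59.8-fold without aged limb 1. IL11 was 144-fold higher in blastemas, with a counting interval of 48.9 to 697 from 3 counts in the aged limbs. It was tested but not called, and blastema 5 lay below aged limb 2, so the groups overlapped. The fold for IL11 was 75.3 without blastema 2, 58.6 without aged limb 1 and at least 85.0 without aged limb 2, which held all 3 counts. The 2 groups did not overlap in 17 of 26 members, against 21.1% of all genes tested. In 14 of 26 the blastemas were below both aged limbs, beside 2714 of all 22076 genes tested. In 3 of 26, CTSK, IL17RD and MARCO, they were above both, beside 1946 of 22076 genes. No excess over all genes is read from these 3.

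Several members share a name, and reads that match near-identical copies could have been divided between them or dropped, so their levels are uncertain. The counts of PTPRB.1 were 0.196 to 0.325 times those of PTPRB in all 12 libraries. Whether the pair counts the same reads was not tested. CCL19 and CCL19.1 did not keep one ratio. Counts of CCL19.1 were 1.86 and 0.346 times those of CCL19 in the aged limbs, against 0.257, 0.132, 0.069, 0.218 and 0.083 times in juvenile limbs, so the aged limbs had the higher share of CCL19.1. In CPM, CCL19.1 was 6.44 and 2.32 in aged limbs, within the 0.97 to 6.86 of the juvenile limbs. Whether the lower CCL19 of the aged limbs depends on how reads were divided between the copies was not tested. The 6 PTPRH copies diverged as well, and the ratio of PTPRH.4 to PTPRH.2 ranged from 0.522 to 10.1 over 10 libraries with enough counts.

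To see how immune and signalling genes outside the choice stood, 19 genes of innate immunity and kinase signalling that the table of the study does not hold were taken as a list. Since the table was selected on difference, genes outside it were thereby favoured to have few calls, and their count is a description. By edgeR's quasi-likelihood test, 0 of 15 tested were called between blastemas and juvenile limbs, against 7.45% of all genes, with 1 at an unadjusted p under 0.05 and 0 called by DESeq2. The median log2 fold change was -0.04, against -0.02 for all genes. IL1B, an inflammatory cytokine, had 239, 152, 132, 122 and 200 CPM in blastemas, 114 and 315 CPM in aged limbs, and 93.8, 333, 154, 99.8 and 55.5 CPM in juvenile limbs, with the groups overlapping throughout. Its log2 fold change in blastema over juvenile limb was 0.20 ± 0.42 (SE, edgeR adjusted p = 0.808). OAS3.2, an interferon-induced enzyme copy, had a log2 fold change of -0.69 ± 0.37 (SE, edgeR adjusted p = 0.276).

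The same list gave 0 of 16 tested called in aged over juvenile limbs, with 2 at an unadjusted p under 0.05 in edgeR, 1 in DESeq2 and 0 called by either tool. Its median log2 fold change there was 0.40, against -0.04 for all genes. In blastema over aged limb, 0 of 16 were called by edgeR or DESeq2, with 2 at an unadjusted p under 0.05 in each. A second list of 28 immune genes comes from the table itself, so its direction in blastemas is no independent evidence. Of 24 tested there, 5 were called higher and 9 lower by edgeR in blastema over juvenile limb, with a median of -1.50. Run without the filter on low counts, DESeq2 called 7 higher and 18 lower among all 28. In blastema over aged limb edgeR called 1 of 25 tested, which was higher, and DESeq2 called 2 higher and 4 lower. LSP1, a leukocyte cytoskeletal protein, had a log2 fold change of 1.15 ± 0.30 (SE), and SAMD9L, an interferon-inducible gene, one of -1.24 ± 0.37 (SE). In aged over juvenile limbs 0 of 28 were called by edgeR or DESeq2, with 3 and 2 at an unadjusted p under 0.05.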

How the data were processed

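RNA was measured in 12 libraries of axolotl limb tissue, grouped by their labels into 5 blastemas, 2 aged limbs and 5 juvenile limbs. The authors depleted ribosomal RNA, prepared stranded libraries, trimmed reads with Trimmomatic 0.39, used STAR 2.7.9a for alignment to AmexG_v6.0-DD, and ran featureCounts on the AmexT_v47 genes. Its settings for strand and for reads with several matches are not given in the sources used here. The authors deposited whole-number counts without normalization, and the 12 files per library equalled the joint table. Names come from tables of the study, which pair 1924 identifiers with a name. Numeric suffixes mark copies of one name. The members and lists were chosen with earlier results of these data known.

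Each comparison was fitted on its 2 groups by the quasi-likelihood F test of edgeR 4.0.16 (R 4.3.3) after filterByExpr and TMM scaling, and p-values were adjusted over all genes by the Benjamini-Hochberg method. The fit was tested on simulated data. Calls needed an adjusted p under 0.05 and a log2 fold change beyond 1 in either direction. The standard error is the size of the log2 fold change divided by the square root of F. The study used DESeq2, which was run as an alternative in version 1.42.0. The others were DESeq2's size factors, no filter, a mean of at least 10 counts, all 12 libraries, the adjusted p alone, the animal as a block and each library left out. Intervals and floors cover counting error only.

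Values in every library are given for the 3 members of each role with the highest total count, and for members outside the juvenile range in both aged limbs. Other members were chosen for naming after their values were seen or are given by range. Named non-members are the 2 of each list with the highest total count. By the methods of the study, limbs and blastemas came from 5 juvenile axolotls. That a blastema and a juvenile limb of the same number are of the same animal is read from the shared numbers. For these 5 pairs the deviations from the group means correlated at -0.003 to 0.212, median 0.139, against a median of -0.006 for other numbers. Of the 5 blastemas, 3 correlated best with the limb of their own number. No sequence or coordinate was used here.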

Additional observations from a re-analysis of the deposited data

Results flagged for a closer look

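Among 54 pairs of a member and a group of 5 libraries, 9 had 1 library far from the other 4. Chance flags about 1 pair in 20 only for normally distributed values, which was not checked for these CPM. No excess over chance is therefore read from the 9. CCL19.1 and CD164L2, counted in 1 blastema only, were flagged by construction. Each of the values below stands apart by a gap of more than 0.71 of the range of its group.

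Blastema 2 stood apart in CTSK, with 568 CPM against 69.5 to 152 CPM in the other blastemas, and in IL11, with 43.5 CPM against 0.16 to 10.8 CPM. Blastema 8 was high in 3 members. These were NLRP12.3, with 23.8 CPM against 1.37 to 6.89 CPM, PTPRH, with 3.57 CPM against 0 to 0.87 CPM, and PTPRH.2, with 6.39 CPM against 0 to 1.18 CPM. Blastema 6 was high in CTSS, with 6.66 CPM against 1.02 to 2.299 CPM, and held the single count of CCL19.1, which is 0.0757 CPM. Blastema 3 held all 5 counts of CD164L2 in blastemas, at 0.230 CPM. Among juvenile limbs, replicate 3 was low in PTPRH.4, with 13.6 CPM against 20.4 to 23.1 CPM.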

How the results depend on the processing

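A part of the log2 fold changes was followed under all alternatives, and none of these reversed. In blastema over juvenile limb they were those of the members given in every library that passed the filter. Those of IL1B, OAS3.2, LSP1 and SAMD9L were added after seeing the data. In aged over juvenile limb they were those of CCL19, DUSP26.2 and PTPRH.1. Both aged limbs lay below all juvenile limbs in these 3 members, which favours a kept sign. Other members did reverse in aged over juvenile limb, such as PTPRB, from -0.39 to 0.32, and CD164L2, from -4.50 to 0.24. Folds that rest on 0 to 3 counts were recomputed without each library, also after seeing the data. Members called in blastema over juvenile limb numbered 16 of 25 tested, against 28 of 30 with DESeq2 and 25 of 30 without the filter. They were 21 of 25 with the animal as a replicate block and 10 to 22, of 25 to 29 tested, when each library was left out. The 10 came without juvenile limb 2 or juvenile limb 8, and the 22 without blastema 8. Of all genes, the block called 301 higher and 1093 lower of 19961, and the fit without blastema 8 called 402 and 1308 of 20831. In aged over juvenile limb the count was 0 of 29, against 1 of 30 with DESeq2, 1 of 30 without the filter and 0 of 29 with each juvenile limb left out. In blastema over aged limb it was 3 of 26, against 7 of 30 with DESeq2, 16 of 30 without the filter and 7 of 30 with all 12 libraries. With each blastema left out it was 1 to 4 of 26. The cause of these shifts was not tested. No paired analysis was possible because no aged animal gave a second library, for the comparisons with aged limbs. Over all genes, the calls in blastema over juvenile limb were 371 higher and 1117 lower of 19961 tested. Of 63474 genes they were 682 and 2014 with DESeq2, and 981 and 2279 without the filter. In aged over juvenile limb they were 13 and 12 of 24316. Of 62161 genes they were 68 and 235 with DESeq2, and 230 and 667 without the filter. In blastema over aged limb they were 97 and 254 of 22076, and 223 and 785 of 25263 with all 12 libraries. Of 50623 genes they were 525 and 561 with DESeq2, and 728 and 1139 without the filter.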
